A study of Mus musculus with 8 samples.

Results

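The elastic fibre genes described here are 10 genes chosen by symbol: elastin (Eln), the fibrillins Fbn1 and Fbn2, the fibulins Fbln1, Fbln2, Fbln5, Efemp1 and Efemp2, and the crosslinking enzymes Lox and Loxl1. All 10 of them were found among the 31276 genes of the deposited table, and all 10 passed the filter on low values that left 14215 genes for testing. RNA-seq was carried out on C3H10T1/2, an established line of mouse embryo mesenchymal cells, with stable expression of a FLAG-HA-tagged histone H3 transgene. There were 8 lines with 1 library each. Of these, 6 carried H3.3, either wild type (WT) or with lysine 36 replaced by alanine (K36A), isoleucine (K36I), leucine (K36L), methionine (K36M) or arginine (K36R). The other 2 carried H3.1 with K36M or K36R. No line without a transgene and no H3.1 wild-type line is among them, and the labels do not say whether a line is 1 clone or a pool, nor that any line was derived or cultured more than once. The labels name no change to the cells' own histone genes.

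An elastic fibre is built in steps. Fibrillins form microfibrils outside the cell, tropoelastin (the product of Eln) is laid down on them with the help of fibulins, and lysyl oxidases then crosslink it into an insoluble, elastic core. Such fibres give arteries, lung and skin their recoil, and mesenchymal cells, with smooth muscle cells, are among the cells that make them.

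Because no transgene had a replicate, the lines were compared as classes: the 3 lines with K36M or K36I, substitutions known to inhibit H3K36 methyltransferases, against the other 5. Here n counts lines, and p-values measure the spread between lines, part of which may be technical. Levels are given as normalised reads, which are the reads recovered from the deposited values divided by the size factor of the library. Differences are on the deposited log2 scale, where genes with few reads differ less than their logged reads do. Depth ran from 45448249 reads in H3.1 K36M to 68020958 in H3.3 K36I, and 45S ribosomal reads (Rn45s) made up 1.66% to 5.24% of a library, the most in H3.3 K36A. Of 10 mesenchymal markers all 10 passed the filter. In the K36M and K36I lines 2 of them were called higher (Twist1 by 0.47, Twist2 by 1.20), beside 6.45% of all genes tested. The other 8 were not called, among them Prrx1 (0.00) and Col1a2 (-0.68, limma adjusted p = 0.0521, called lower under 3 of 4 alternatives). Pdgfra was called lower only with histone as a covariate. The median difference of these 10 markers was -0.16, against -0.01 over all genes tested. Their summed level was 528800 to 711500 normalised reads in the K36M and K36I lines and 711600 to 983700 in the other 5. Of 6 epithelial markers 2 passed the filter, Krt14 (18.4 to 7403 normalised reads) and Cdh1 (291 to 1065), while Epcam was at 0 to 2.19. Of 7 leukocyte markers 1 passed, Cd68 (101 to 241), while Ptprc was at 0 to 7.89 and Cd3e at 0. Krt14, Cdh1 and Cd68 were not called in the class comparison. Under 3 of 4 alternatives (library medians set equal, histone as a covariate, array weights) Cd68 was called higher, and Krt14 was called lower with array weights. The part of Krt14, Cdh1 and Cd68 in the results was not tested. None of 5 endothelial markers passed the filter (0 of 5).

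Eln and Fbn2 were lower in all 3 K36M and K36I lines than in any of the other 5, and they were the only members of the 10 that passed the class test. Mean Eln was 15.8 ± 12.9 normalised reads (SD, n = 3) in the K36M and K36I lines and 6009 ± 5627 (SD, n = 5) in the others, which is 381 times more. Mean Fbn2 was 668 ± 238 (SD, n = 3) against 6532 ± 3811 (SD, n = 5), which is 9.78 times more. The call of 2 in 10, both lower, stands beside 13.3% of all genes tested that were called in either direction, 6.82% lower (970 genes) and 6.45% higher (917 genes), or 805 lower and 1156 higher with library medians set equal. The classes did not overlap for 21.5% of all genes, and all 3 lines lay below all 5 for 11.5%. The median difference of the 10 genes was -0.25, against -0.01 over all genes tested.

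Eln, on chr5:134702593-134747323 (GRCm38, minus strand), encodes tropoelastin, the elastic component itself. Its level was 7794 normalised reads in H3.3 WT, 15057 in H3.3 K36R, 3220 in H3.1 K36R, 2838 in H3.3 K36L and 1137 in H3.3 K36A. In the K36M and K36I class H3.3 K36M had 30.5, H3.3 K36I 10.2 and H3.1 K36M 6.57. The classes did not overlap, and the lowest line of one class, H3.3 K36A, still held 37.2 times the normalised reads of H3.3 K36M, the highest of the other. The 3 low values rest on 32, 12 and 5 reads, with exact Poisson 95% intervals of 21.9 to 45.2, 6.20 to 21.0 and 1.62 to 11.7 reads that cover counting error only. H3.3 K36I and H3.1 K36M therefore could not be ordered, whereas every other neighbouring pair of lines was further apart than its counting intervals. On the deposited log2 scale Eln fell by 5.44 (SE 0.70, limma adjusted p = 0.00200), the 2nd largest difference in size among the 14215 genes. The two-sided exact permutation p was 0.0179, the smallest that the 56 ways of choosing 3 libraries of 8 allow. In bulk RNA, fewer cells making a transcript and less of it per cell cannot be told apart. An antisense gene, Gm30003, shares 267 exonic bases with Eln, and without stated strand their reads cannot be separated.

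Among the 5 lines that kept Eln, its level spread widely. H3.3 K36R held 1.93 times the level of H3.3 WT, whereas H3.3 WT held 2.42 times that of H3.1 K36R, 2.75 times that of H3.3 K36L and 6.86 times that of H3.3 K36A. Each of these ratios compares 1 library with 1 library and has no replicate check. H3.3 K36A also had the highest share of 45S ribosomal reads. It held the least Eln of these 5 lines, so leaving it out could only widen the class difference. That difference then became -5.89 (limma adjusted p = 0.00137), and the part of ribosomal reads in the Eln level was not tested.

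**Figure D1:**
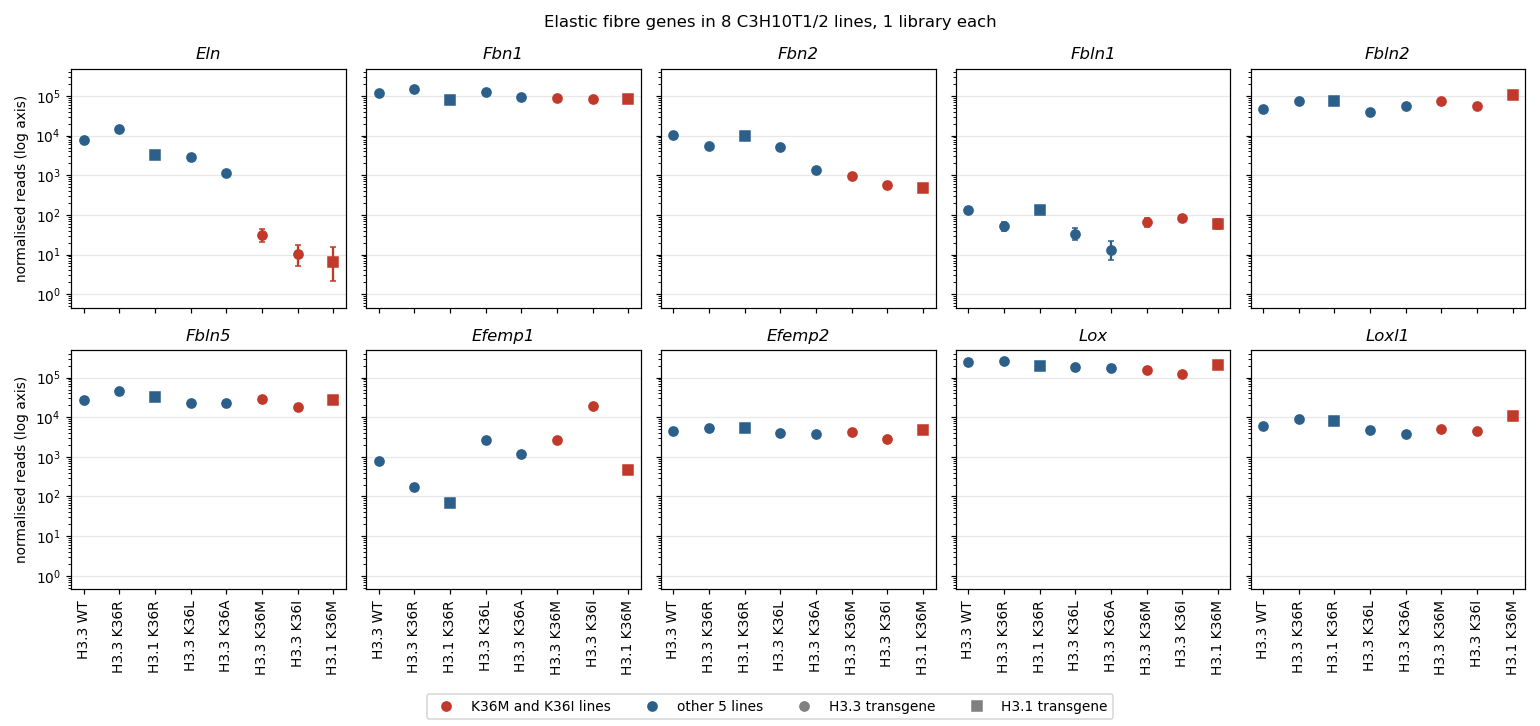
Normalised reads (log axis) of the 10 elastic fibre genes in each of the 8 lines. Each point is 1 library with its exact Poisson 95% counting interval, circles for H3.3 and squares for H3.1 transgenes. The 3 red K36M and K36I lines lie below all 5 blue lines for Eln and Fbn2, and Efemp1 runs from 68.9 in H3.1 K36R to 18638 in H3.3 K36I. The other 7 members span 0.88 to 1.48 on the deposited log2 scale. Of these 7, Fbln1 spans 10.2-fold in normalised reads and the rest 1.84-fold (Fbn1) to 2.85-fold (Loxl1).

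The fibrillins form the microfibril scaffold. Fbn2 (chr18:58008623-58210487, minus strand), the fibrillin known mainly from development, was at 10557 normalised reads in H3.3 WT, 10077 in H3.1 K36R, 5407 in H3.3 K36R, 5221 in H3.3 K36L and 1399 in H3.3 K36A. In the K36M and K36I class H3.3 K36M had 937, H3.3 K36I 579 and H3.1 K36M 486. The classes did not overlap, but H3.3 K36A stood only 1.49 times above H3.3 K36M. Fbn2 fell by 2.84 on the deposited log2 scale (SE 0.59, limma adjusted p = 0.0152, exact permutation p = 0.0179). The call was narrowly lost without H3.3 K36I (-2.78, limma adjusted p = 0.0528) and with the H3.3 libraries alone (-2.45, limma adjusted p = 0.0511). H3.3 K36A, the line with the most ribosomal reads, also held the least Fbn2 of the other 5 lines. Leaving it out could therefore only widen the difference, which became -3.30 (limma adjusted p = 0.00143). The part of ribosomal reads in the Fbn2 level was not tested.

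Fbn1 (chr2:125300594-125507993, minus strand), the fibrillin of the adult microfibril, ranged only from 80672 to 148631 normalised reads. Its lowest library was H3.1 K36R and its highest H3.3 K36R, so the classes overlapped. The class difference of -0.39 (95% interval -0.82 to 0.04, limma adjusted p = 0.213) did not pass. The predicted gene Gm9913 on the opposite strand shares 2442 of the 12128 exonic bases of Fbn1. Set per kilobase of exon, the Fbn2 level was 7.92% of the Fbn1 level in H3.3 WT and 11.5% in H3.1 K36R. It was 0.986% in H3.3 K36M, 0.631% in H3.3 K36I, 0.532% in H3.1 K36M and 1.34% in H3.3 K36A, with 3.87% in H3.3 K36L and 3.34% in H3.3 K36R between. Of the 2 fibrillins, then, the lines with little elastin RNA had little Fbn2 and kept Fbn1.

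Fibulins bind tropoelastin, fibrillins or both. Fbln5 and Efemp2 (also called fibulin-4) are the members of the family needed to assemble elastin, and Efemp2 also binds Lox. Efemp1 (fibulin-3) is a close relative that is known from the matrix of the eye and of connective tissue. Among the fibulins, Efemp1 was the one that differed most between lines. The bases just upstream of the start sites of Efemp1, the most variable fibulin, and of Fbln5, whose range was narrower (1.37 on the deposited log2 scale, beside a median of 0.56 over all genes tested), are shown for reference, from RefSeq on GRCm38.p6. They read 5′ to 3′ on the strand of the gene, with each CG dinucleotide in capitals, chr11:28852955-28853203 (plus strand) and chr12:101819120-101819369 (minus strand, 1 of 2 start windows listed for Fbln5).
Efemp1: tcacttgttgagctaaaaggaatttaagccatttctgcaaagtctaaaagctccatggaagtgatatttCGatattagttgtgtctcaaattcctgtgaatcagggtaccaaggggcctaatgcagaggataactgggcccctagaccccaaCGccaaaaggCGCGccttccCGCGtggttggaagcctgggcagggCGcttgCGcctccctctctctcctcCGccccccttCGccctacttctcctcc
Fbln5: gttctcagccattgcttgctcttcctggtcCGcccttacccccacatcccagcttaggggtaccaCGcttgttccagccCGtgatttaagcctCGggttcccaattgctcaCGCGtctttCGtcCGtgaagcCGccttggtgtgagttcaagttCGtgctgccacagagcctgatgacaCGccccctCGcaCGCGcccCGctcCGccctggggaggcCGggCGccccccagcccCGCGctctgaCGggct
The Efemp1 window of 249 bases holds 10 CG dinucleotides, a number reached by 37.7% of 32851 RefSeq start windows cut to the same length. The Fbln5 window of 250 bases holds 21, reached by 16.3%. This describes the sequence, and RNA levels do not measure any mark on it.

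Efemp1 (chr11:28853204-28926743, plus strand) reached 18638 normalised reads in H3.3 K36I, with 2677 for H3.3 K36M and 477 for H3.1 K36M. In the other class it was at 2673 in H3.3 K36L, 1192 in H3.3 K36A, 794 in H3.3 WT, 175 in H3.3 K36R and 68.9 in H3.1 K36R. The classes overlapped, and H3.3 K36M and H3.3 K36L could not be told apart by counting error. The highest and lowest lines differed 271-fold. Over the 8 libraries 3 members, Eln, Efemp1 and Fbn2, had a range of at least 4 on the deposited log2 scale, where 0.964% of all genes did, and the same 3 reached at least 3, where 2.60% did. For Efemp1 the range was 6.78, and 0.0633% of the genes tested had a wider one. The class difference of 2.18 (SE 1.20, 95% interval -0.55 to 4.91, limma adjusted p = 0.278) did not pass. It moved with single libraries, to 0.89 without H3.3 K36I (limma adjusted p = 0.673) and to 3.38 without H3.1 K36M (limma adjusted p = 0.0913). H3.3 K36I held 6.96 times the Efemp1 level of H3.3 K36M and 23.5 times that of H3.3 WT, with no replicate of the line.

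Fbln5 (chr12:101746565-101819055, minus strand) had its lowest level, 17805 normalised reads, in H3.3 K36I and its highest, 46076, with H3.3 K36R. Efemp2 (chr19:5473954-5482517, plus strand) lay between 2789 and 5294, with the same lines at the ends. Neither passed, with class differences of -0.27 (95% interval -0.86 to 0.31) for Fbln5 and -0.23 (95% interval -0.66 to 0.19) for Efemp2. Without H3.3 K36I they were -0.06 and -0.01, and without H3.1 K36M the Efemp2 difference was -0.39. Of Efemp2, 173 exonic bases are shared with Mus81 on the opposite strand. Across the 8 libraries Efemp1 was low where Efemp2, Fbln5 and Lox were high. Pearson r of the deposited log2 values was -0.95 with Efemp2, -0.81 with Fbln5 and -0.81 with Lox (Spearman -0.88, -0.71 and -0.81). With the remaining members r was weaker: -0.69 for Loxl1, -0.58 for Eln, -0.56 for Fbn2, -0.45 for Fbln2, -0.21 for Fbn1 and -0.20 for Fbln1. Without H3.3 K36I and H3.1 K36R, the lines farthest from the Efemp1 median, r with Efemp2, Fbln5 and Lox over the remaining 6 was -0.85, -0.73 and -0.82. These are descriptions over lines that share a parent and a single deposited table. By Pearson r over the 8 libraries, those 3 are the strongest of the 9 that Efemp1 has with other members. Loxl1, with Spearman -0.74 and r = -0.76 over the 6, was stronger than Fbln5 on both of those measures.

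Fbln2 (chr6:91212455-91272540, plus strand), a fibulin of elastic fibres and basement membranes, was abundant, at 40425 normalised reads in H3.3 K36L to 106728 in H3.1 K36M. Fbln1 (chr15:85205949-85286535, plus strand), a fibulin of elastic fibres and blood clots, was the least abundant member per kilobase of union exons in the 5 lines without K36M or K36I (9th, above Efemp1, in H3.1 K36R by longest coding transcript), with a range over all lines of 13.4 normalised reads in H3.3 K36A to 137 in H3.1 K36R. H3.3 WT, at 134, was close to H3.1 K36R, and their counting intervals overlap. The class differences of 0.42 for Fbln2 (95% interval -0.19 to 1.03, limma adjusted p = 0.351) and 0.08 for Fbln1 (95% interval -0.61 to 0.77, limma adjusted p = 0.902) did not pass. Fbln1 differed from H3.3 WT by -1.30 in H3.3 K36A and by -0.93 in H3.3 K36L, with -0.69 in H3.3 K36R and -0.37 to -0.59 in the K36M and K36I lines.

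Lox and Loxl1 oxidise lysines so that elastin chains join, Lox also acting on collagens. Lox (chr18:52516067-52529867, minus strand) had the highest level per kilobase of the 10 genes in every line. It stood at 243999 normalised reads in H3.3 WT, 261601 in H3.3 K36R, 194920 in H3.1 K36R, 189210 in H3.3 K36L and 174861 in H3.3 K36A. In the K36M and K36I class H3.3 K36M had 158244, H3.3 K36I 120437 and H3.1 K36M 207673. The 2 low H3.3 lines lay below all others, while H3.1 K36M lay among them, so the classes overlapped. The class difference of -0.41 (95% interval -0.88 to 0.06, limma adjusted p = 0.235) did not pass, and with array weights it did (-0.52, limma adjusted p = 0.0465), as did that of Fbn1 (-0.44, limma adjusted p = 0.0453). Loxl1 (chr9:58287738-58313186, minus strand) ranged from 3770 normalised reads in H3.3 K36A to 10727 in H3.1 K36M. Its class difference of 0.09 (95% interval -0.69 to 0.87, limma adjusted p = 0.901) did not pass and turned to -0.19 with the H3.3 libraries alone.

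**Figure D2:**
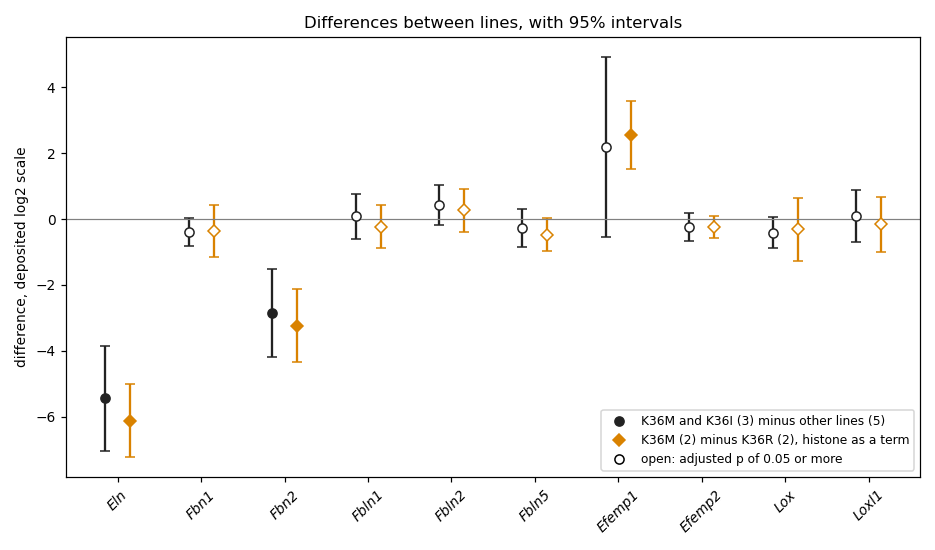
Differences of the 10 genes on the deposited log2 scale with 95% intervals from limma. Black circles set the 3 K36M and K36I lines against the other 5 and orange diamonds set 2 K36M lines against 2 K36R lines. Filled points have an adjusted p under 0.05: Eln and Fbn2 in both comparisons, and Efemp1 (2.55) only in K36M against K36R.

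The lines with K36M and K36R on both histones allowed substitution to be compared with the histone as a term in the model. Of the 10 genes 3 passed, where 4.50% of all genes tested did. In K36M, Eln fell by 6.12 (SE 0.42, limma adjusted p = 0.0111), with K36R to K36M ratios of 493 on H3.3 and 490 on H3.1. The K36M side of these ratios rests on 32 reads on H3.3 and 5 on H3.1 (95% counting interval 1.62 to 11.7). Their likeness is therefore not resolved. On the deposited log2 scale the Eln differences were -6.94 on H3.3 and -5.29 on H3.1. Fbn2 fell by 3.23 (SE 0.42, limma adjusted p = 0.0320), with ratios of 5.77 on H3.3 and 20.7 on H3.1. Efemp1 was higher in K36M by 2.55 (SE 0.38, limma adjusted p = 0.0438), at 15.3 times the K36R level on H3.3 and 6.93 times on H3.1. Efemp1 thus rose from K36R to K36M in both pairs, although its K36M level on H3.1 (477 normalised reads) was below that of H3.3 WT (794). At unadjusted p under 0.05 there were the same 3 of 10, beside 18.3% of all genes. Efemp1 was the 1 member higher in K36M than in K36R on both histones, as 31.3% of all genes were, and Eln, Fbn2, Fbln5 and Efemp2 were lower on both, as 32.2% were. The other 5 had opposite signs on the histones, as 36.4% of all genes did. This comparison and the class comparison share all 4 libraries, and with 2 lines a side its spread is estimated from few values. Taking H3.1 minus H3.3 in the same model, 0 of the 10 genes passed by limma's adjusted p and 12 of all genes did (0.0844%). At unadjusted p under 0.05 there were 2 of the 10, Eln (-1.35) and Efemp1 (-1.49), where 12.4% of all genes had such a p.

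Set against H3.3 WT, with 1 library a side, differences of at least 1 on the deposited log2 scale were counted without a test. The 7 comparisons share the WT library. H3.3 K36I had 4 such genes of 10: Eln (-6.42), Fbn2 (-3.94), Lox (-1.02, just past the threshold) and Efemp1 (4.36), where 7.63% of all genes tested differed as much. H3.3 K36M had Eln (-6.00), Fbn2 (-3.34) and Efemp1 (1.62), beside 8.69%. H3.1 K36M had Eln (-6.53), Fbn2 (-4.14) and Fbln2 (1.19), beside 10.3%. In H3.3 K36A, Eln (-2.65), Fbn2 (-2.81) and Fbln1 (-1.30) were lower by at least 1, beside only 2.08% of all genes. H3.3 K36L had Eln (-1.42) and Efemp1 (1.61) beside 1.03%, with Fbn2 just short of the threshold (-0.9988), H3.3 K36R had only Efemp1 (-1.68) beside 1.76%, and H3.1 K36R had Eln (-1.24) and Efemp1 (-2.42) beside 3.33%. In the H3.3 K36A line, then, Eln and Fbn2 took values between those of H3.3 WT and those of the K36M and K36I lines. With the median of 4 H3.3 lines as the reference in place of H3.3 WT, the counts were 3 in H3.3 K36I, 3 in H3.3 K36M and 4 in H3.1 K36M. The shares of all genes above hold for H3.3 WT as the reference only, so these counts have none beside them.

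**Figure D3:**
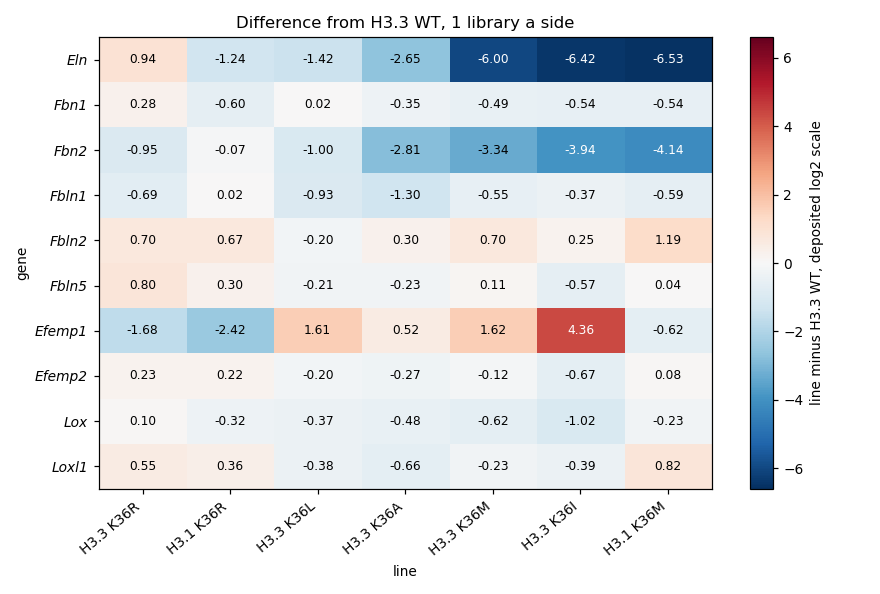
Difference of each of the 7 mutant lines from H3.3 WT on the deposited log2 scale, 1 library a side, for the 10 elastic fibre genes. Eln and Fbn2 are lowest in the K36M and K36I lines and intermediate in H3.3 K36A, and Efemp1 changes sign between H3.3 K36I (4.36) and H3.1 K36R (-2.42).

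The order of the lines was partly shared by the members. H3.3 K36R was the highest of the 6 H3.3 lines for 7 of the 10 genes (Eln, Fbn1, Fbln2, Fbln5, Efemp2, Lox and Loxl1), as it was for 18.7% of all genes tested. For Fbln2 its counting interval overlaps that of H3.3 K36M. H3.3 K36I was the lowest of those 6 for Eln, Fbn1, Fbn2, Fbln5, Efemp2 and Lox, and for 20.4% of all genes. It lay below H3.3 K36M for 8 of the 10, beside 51.9%. H3.3 K36A was the lowest of the 5 lines without K36M or K36I for Eln, Fbn2, Fbln1, Fbln5, Efemp2, Lox and Loxl1, and for 18.4% of all genes. For Fbln5 and Efemp2 the counting intervals of H3.3 K36A and its neighbour H3.3 K36L overlap. These lines also mark the ends of the share of ribosomal reads among the H3.3 libraries, 1.66% in H3.3 K36R and 5.24% in H3.3 K36A, and the part of that in the order was not tested. The members were not drawn at random, so these counts are descriptions.

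Levels of different genes were compared as RPKM over union exon length, which scales reads to gene length and library depth. In H3.3 WT the order from high to low was Lox, Fbn1, Fbln2, Fbln5, Loxl1, Efemp2, Eln, Fbn2, Efemp1 and Fbln1. Eln stood 6th of 10 in H3.3 K36R, at 15.2% of the Fbn1 level, and 10th in all 3 K36M and K36I lines, at 0.0117% to 0.0524%. By the longest coding transcript these shares were 31.5% and 0.0243% to 0.109%. Efemp1 moved from 9th in H3.3 WT to 2nd in H3.3 K36I, where it stood at 3.55 times the level of Fbln5 and 12.4 times that of Efemp2, against 0.102 and 0.328 times in H3.3 WT. With the length of the longest coding transcript instead, Efemp1 was 3rd in H3.3 K36I, at 3 times Fbln5, and Eln was 5th in H3.3 WT and H3.3 K36R. It was again 10th in the 3 low lines.

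Other genes of elastic fibres were taken from lists of related proteins. Of 13 microfibril-associated genes 10 were tested, of which 3 rose and 0 fell in the class comparison, where 6.45% of all genes rose and 6.82% fell (median 0.28, against -0.01 over all genes tested). The same shares of all genes apply to the lists that follow. Ltbp1, which holds latent TGF-beta on microfibrils, rose by 1.84 (SE 0.33), from 2953 to 9661 normalised reads in the 5 lines to 15830 to 25190 in the 3. Emilin2, a glycoprotein of the EMILIN family, rose by 0.94 (SE 0.15). Npnt, which encodes nephronectin, an integrin ligand of the matrix, rose by 2.71 (SE 0.36), from 11.5 to 76.0 normalised reads to 426 to 1496. Mfap2 and Mfap4, proteins of microfibrils, were at no more than 13.0 normalised reads in any line and were not tested. Mfap5 ranged from 184 normalised reads in H3.3 K36I to 3316 in H3.3 K36R, with no call (-0.44, limma adjusted p = 0.814).

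Of 10 genes for other lysyl oxidases and their processing 9 were tested, of which 2 fell and 0 rose (median 0.30, beside 6.82% of all genes that fell). With array weights 3 rose as well, Loxl2, Loxl3 and Pcolce. That setting called 1969 of all 14215 genes higher, against 917 in the main fit. Fn1, which encodes fibronectin, a matrix protein on which microfibrils assemble, fell by 1.01 (SE 0.21, limma adjusted p = 0.0167), from 111300 to 167900 normalised reads to 54930 to 102300. Atp7a, the pump that loads copper onto lysyl oxidases, fell by 0.63 (SE 0.08, limma adjusted p = 0.00178), from 5429 to 5843 normalised reads to 3261 to 4081. Loxl2 (0.38), Loxl3 (0.47) and Loxl4 (0.30) did not pass. Of the 3 remaining fibulin family genes, Hmcn2 rose by 1.17 (SE 0.13) and Fbln7 fell by 0.75 (SE 0.14), and Hmcn1 was not tested.

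Of 9 ADAMTS and ADAMTSL genes of the microfibril 8 were tested, with 2 higher and 2 lower (median -0.36, beside 6.45% and 6.82% of all genes). With array weights 4 were lower, Adamtsl4 and Adamtsl5 added. That setting called 2105 of all 14215 genes lower, against 970 in the main fit. The protease gene Adamts6 rose by 2.18 (SE 0.35), from 227 to 789 normalised reads to 1416 to 3115. Adamtsl2, whose product binds fibrillin and latent TGF-beta binding proteins, rose by 1.78 (SE 0.15), from 3.83 to 19.7 normalised reads to 158 to 248. Adamtsl1 (-1.41, SE 0.24) and Adamtsl3 (-0.57, SE 0.15) fell. Of 11 genes for proteases able to degrade elastin and their inhibitor, 10 were in the table and 5 were tested. The lysosomal protease gene Ctsl rose by 0.91 (SE 0.19), and Mmp2, a gelatinase, fell by 0.49 (SE 0.11). The elastases Mmp12 and Mmp7 were at 0 reads in all 8 libraries, which allows up to 3 reads in each. The 13 genes named as called in these lists kept their direction and call when library medians were set equal.

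**Figure D4:**
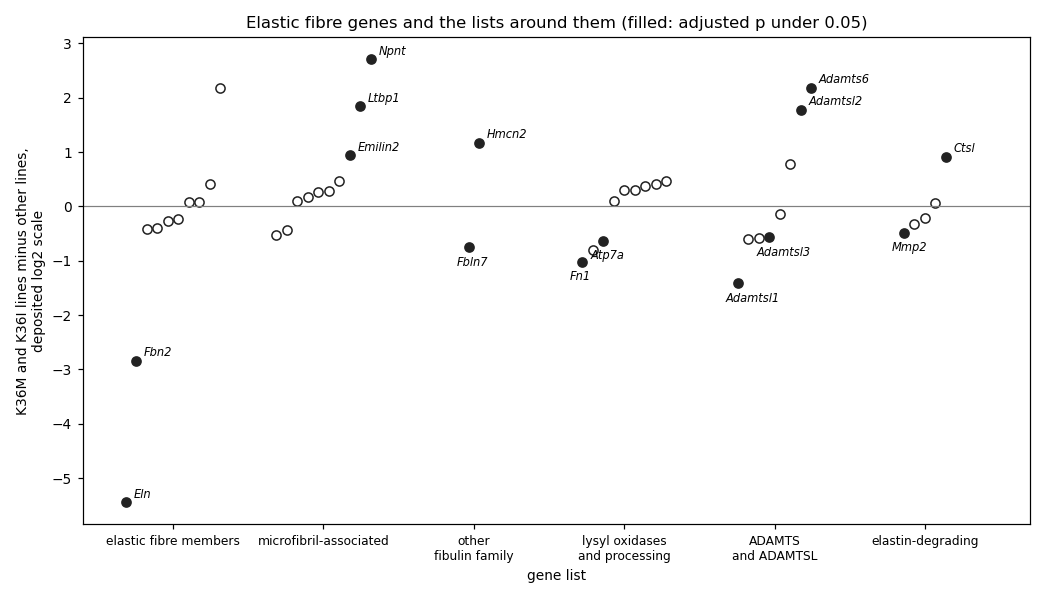
Class difference (3 K36M and K36I lines minus the other 5, deposited log2 scale) of each tested gene in the 6 lists. Filled points passed limma's adjusted p of 0.05 and are named. The elastic fibre members hold the 2 largest falls, Eln (-5.44) and Fbn2 (-2.84), while Npnt (2.71), Adamts6 (2.18) and Ltbp1 (1.84) stand highest among called genes.

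Smooth muscle cells also make elastin, so their markers were read beside it. Of 7 such markers 6 were tested: Actg2 rose by 2.69 (SE 0.47), Smtn fell by 0.42 (SE 0.09) and 4 did not pass (Acta2, Tagln, Myh11 and Des). The summed level of the 7 was 16570 to 137100 normalised reads in the K36M and K36I lines and 22030 to 77760 in the other 5. Most of that sum was Acta2 alone, at 13660 to 129900 in the K36M and K36I lines and 19380 to 74640 in the other 5. Cnn1 stayed at 5.58 to 21.4 normalised reads. The part of these markers in the levels of Eln was not tested.

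Genes with profiles over the 8 libraries like that of Eln were sought by Pearson r of the deposited log2 values. Genes tested were ranked with predicted genes, clones, microRNAs and small nucleolar RNAs left out by name. The 5 most like Eln were Appl2, Fbxl2, Tmem8b, Gpr125 and Rspo2 (r = 0.98 to 0.99). Their class differences ran from -0.42 in Tmem8b to -3.02 in Rspo2, all smaller than that of Eln. For Fbn2 they were Map2k6, Pde4b, Pqbp1, Gsc and Rgs2 (r = 0.98 to 0.99), with class differences of -0.19 to -1.49. The 2 sets share no gene. Within the 10 members, Eln and Fbn2 placed the 8 lines alike at the low end: H3.1 K36M, H3.3 K36I, H3.3 K36M, H3.3 K36A and then H3.3 K36L. In both genes the counting intervals of H3.1 K36M and H3.3 K36I overlap, and for Fbn2 so do those of H3.3 K36L and H3.3 K36R, so its 5th place is not resolved.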

How the data were processed

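RNA-seq of 8 C3H10T1/2 lines, 1 library each, was analysed from a single table of variance-stabilised log2 values. The authors deposited these log2 values after processing with Trimmomatic 0.32, STAR 2.3.0e, featureCounts 1.4.4, DESeq2 and the mm10 build, per the submitters' processing notes. Not given in the sources used here: settings, annotation, strand of counting and the DESeq2 version. The transformation could be inverted exactly, so whole reads and size factors were recovered and used for levels, depths and counting intervals, and the deposited log2 values were used for all main tests. It compresses differences between genes with few reads. Positions and exon lengths were matched by symbol to GENCODE on GRCm38, and start windows to RefSeq on GRCm38.p6, where 6 of the 10 members had one.

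A gene was tested when its mean exceeded the table's lowest value by 1 or more, close to 31 normalised reads, which kept 14215 and left out 17061. Under R 4.3.3, limma 3.58.1 fitted differences over all 14215 genes with its variance prior following intensity, with Benjamini-Hochberg adjustment and a threshold of 0.05. The class fit used all 8 libraries, and the substitution and histone fit used 4. The fits were tested on simulated data. Named genes were the 10 members, the called genes of each list up to 6, and the 5 genes most like Eln and Fbn2. Predicted genes, clones, microRNAs and small nucleolar RNAs were left out of that last search. The members and lists were chosen with earlier results of these data known. Alternatives covered the filter, library scaling, pseudocounts of 1 and 16, a histone covariate, array weights, no trend, H3.3 libraries alone and leaving out each library.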

Additional observations from a re-analysis of the deposited data

Results flagged for a closer look

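For 5 of the 10 genes the difference between K36M and K36R had opposite signs on the H3.3 and the H3.1 histone, with 1 library on each side, so the difference between the histones was not tested. Of all genes tested 36.4% had opposite signs. Values are K36M minus K36R on the deposited log2 scale. Loxl1, a lysyl oxidase of elastin, was at -0.78 on H3.3 and 0.45 on H3.1, a gap of 1.23. Lox, the main crosslinking enzyme, was at -0.72 and 0.09, a gap of 0.82. Fbn1, the abundant fibrillin, was at -0.77 and 0.06, a gap that also came to 0.82. Fbln1 was at 0.15 and -0.61, a gap of -0.76, and Fbln2 was at -0.0025 and 0.52, a gap of 0.53. For both, the H3.3 difference is within counting error, so the sign on H3.3 is not resolved. In Loxl1, Lox and Fbn1 the H3.3 K36R line held the highest level of the 6 H3.3 lines. Among the 5 lines without K36M or K36I, none stood apart from the other 4 by Dixon's gap test (critical gap share 0.71) in any of the 10 genes; the class of 3 was not tested this way.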

How the results depend on the processing

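The class difference called 1887 genes, 2959 with histone as a covariate, 4074 with array weights and 1021 to 2084 when 1 library was left out (1021 without H3.3 K36M, 1211 without H3.3 WT, 1245 without H3.3 K36I). Of the 10 members 2 were called, 4 with array weights (Fbn1 and Lox added), 1 with H3.3 libraries alone, and 1 to 2 when 1 library was left out. Eln was called in all 17 alternatives, at -8.22 to -4.99. Loxl1 turned to -0.01 with the histone covariate, -0.11 with array weights and -0.19 with H3.3 libraries alone, and ran from -0.29 to 0.32 with 1 library left out. Fbln1 ran from -0.10 to 0.23 with 1 library left out. The histone difference of Fbn2 turned from 0.04 to -0.02 on log2 of normalised reads plus 1. The causes were not tested. Leaving out a library of the substitution fit leaves 3 libraries for 3 coefficients, so no such test was made. The 3 low Eln values rest on 5 to 32 reads, so depth limits their order. No paired analysis was possible because each transgene has 1 library and the labels give no replicate numbers. The histone term is the only block used.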
